A study of Mus musculus with 6 samples.

Results

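The CC chemokine ligands *Ccl2*, *Ccl5*, *Ccl6*, *Ccl7*, *Ccl8*, *Ccl9*, *Ccl11*, *Ccl12*, *Ccl20* and *Ccl25* were examined in 2 mouse microvascular endothelial cell lines, 1G11-mock and 1G11-SOD3. The 10 genes were found by name in the probe annotation of the arrays, and they were represented by 12 probes on 21 spots, out of 55681 probes on 59305 non-control spots. The 1G11 line came from the strain C57BL/6NCrLBR. 1G11-SOD3 cells overexpress SOD3, the extracellular superoxide dismutase, and 1G11-mock cells are its control. Before RNA was taken, both lines spent 6 h in conditioned medium of the mouse mammary cancer line N202.1A, and no array shows either line without it. RNA of 3 independent experiments per line was hybridized to 6 single-color Agilent arrays on 1 slide. Each line occupied a slide row of its own, so slide row and cell line cannot be told apart.

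Chemokines of the CC family are small secreted proteins that attract leukocytes through G-protein-coupled receptors. CCL2 and CCL7 recruit monocytes through CCR2, CCL5 acts on T cells and monocytes through receptors that include CCR1 and CCR3, and CCL9 and CCL6 act through CCR1. CCL11 attracts eosinophils through CCR3, CCL20 binds CCR6, and CCL25 binds CCR9 and is best known from thymus and gut. In endothelial cells, *Ccl2* is a classical target of the NF-κB transcription factors, and the ligand displayed by the vessel wall guides monocytes into inflamed or tumor tissue.

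By the scanner software's own test, *Ccl2*, *Ccl5*, *Ccl7*, *Ccl9* and *Ccl25* were well above background on all 6 arrays, and so 5 of the 10 genes had a measurable level in both lines. *Ccl8*, *Ccl11*, *Ccl12* and *Ccl20* did not pass it on any array. *Ccl6* passed on 1 array only, 1G11-mock replicate 2. For *Ccl25*, 2 of 3 probes (A_51_P161265 and A_66_P104618) passed on every array, and the remaining one (A_55_P2027852) passed on none. The 3 probes were designed on different transcript sequences, and that of A_55_P2027852 is recorded as a non-coding RNA. No spot of these genes was saturated. Across the arrays, 34.2% to 43.8% of non-control spots were well above background.

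Each ligand was read by a 60-base probe, and the first 30 bases of the probes that gave a signal are shown because every level below rests on them. They are written 5′ to 3′ in the sense of the transcript, as the array files give them.
Ccl2, A_51_P286737, 10 copies: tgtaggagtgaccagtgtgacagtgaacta
Ccl7, A_51_P436652, 1 copy: ttctgagaactgttgatgaaatgtgttgat
Ccl5, A_52_P638459, 1 copy: tctcagctgctccgaggctctgcacagcaa
Ccl9, A_51_P185660, 1 copy: caactaggatgaaataaattctgccttagc
Ccl25, A_51_P161265, 1 copy: gaggaacgagaggatagtgagtgtgtgaga
Ccl25, A_66_P104618, 1 copy: aaacttgatgaccttactttgattccaagc
The probes began at base 501 (*Ccl2*), 429 (*Ccl7*), 456 (*Ccl5*), 1144 (*Ccl9*), 953 and 998 (*Ccl25*) of the transcripts they were designed on. Slid along one another without gaps, no probe of one ligand matched a probe of another at more than 27 of 60 bases (45%).

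The place of a spot entered into its value. In the middle of the array (rows 129 to 256 of 384, columns 55 to 109 of 164), the median log2 difference of 1G11-SOD3 from 1G11-mock was 1.14 over the 2274 features well above background, against -0.13 over 17658 such features outside it. A feature is a probe inside or outside the middle, with its copies averaged. Of the 21 ligand spots, 5 lay in the middle (4 of the 10 copies of *Ccl2* and the only spot of *Ccl20*) and are given apart. A second set of values, here called position-adjusted, had a smooth surface over rows and columns taken off each array. There were 399 probes printed 10 times. Over those of their spots above a set mean level, the adjustment reduced the SD of the difference among copies from 0.641 to 0.226. The probe of *Sod3* also lay in the middle. Its log2 level was 13.61, 12.66 and 9.86 on the 1G11-mock arrays and 16.37, 16.30 and 16.26 on the 1G11-SOD3 arrays, a difference of 4.27 ± 0.70 (SE, limma adjusted p = 0.00740) that was 2.62 after position adjustment.

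*Ccl2* had the largest difference of these ligands and was lower in 1G11-SOD3 cells. Outside the middle, the mean of its 6 copies was 16.03, 15.42 and 17.27 (log2 normalized intensity) in 1G11-mock replicates 1 to 3 and 12.41, 12.08 and 12.69 in 1G11-SOD3 replicates 1 to 3, a spot marked as an outlier on 1G11-SOD3 replicate 1 being left out. Every 1G11-mock array was above every 1G11-SOD3 array. The group means were 16.24 ± 0.94 and 12.39 ± 0.31 (SD, n = 3), and the log2 difference was -3.85 ± 0.40 (SE; 95% interval -4.72 to -2.97), 14.4-fold lower, with a limma adjusted p of 0.000520. Position adjustment gave -3.63 (adjusted p = 0.00161). The raw spot intensities showed the same order before any normalization. Averaged over the 10 copies, the mean intensity was 30070 to 100116 on the 1G11-mock arrays and 5016 to 10193 on the 1G11-SOD3 arrays, over local backgrounds of 74 to 106.

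**Figure D1:**
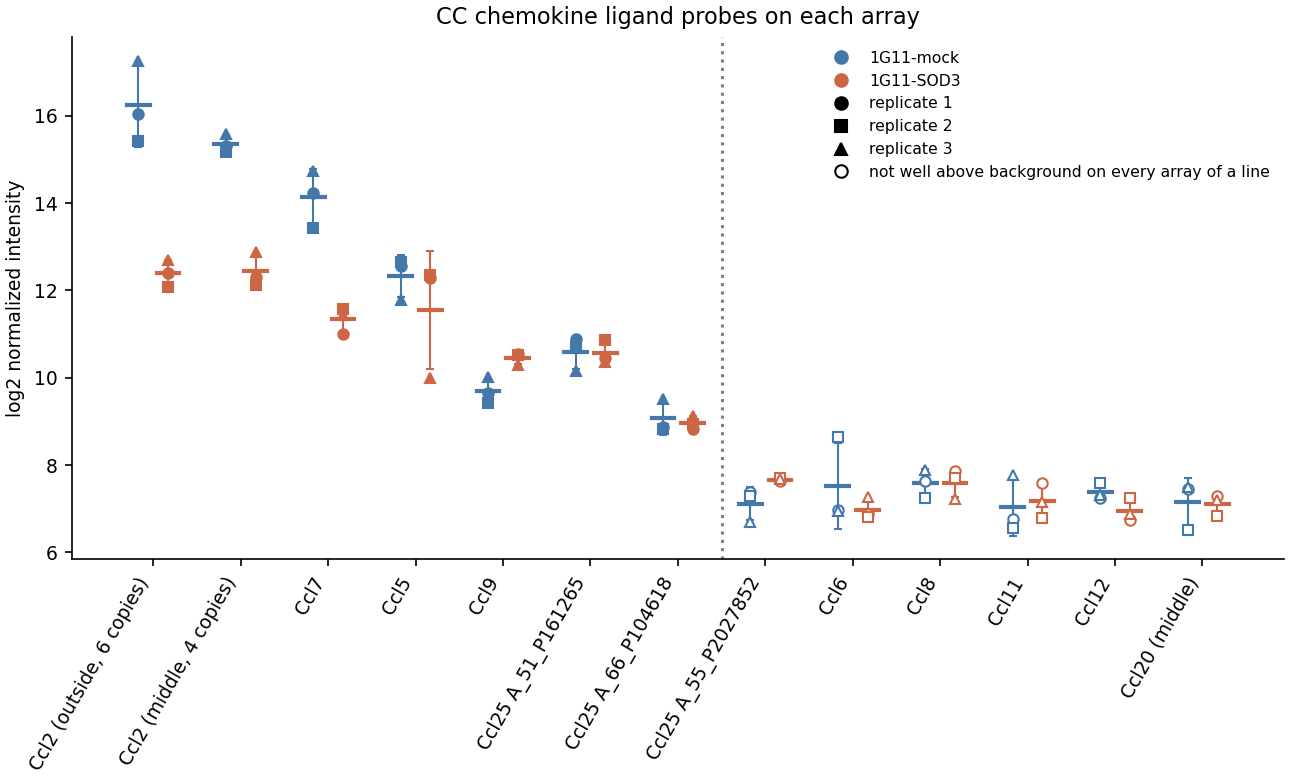
Log2 normalized intensity (y axis) of each CC ligand feature (x axis) on each of the 6 arrays, by cell line (color) and replicate (marker), with bars for the mean and whiskers for the SD of 3 arrays. Open markers are features that did not pass the background test on all arrays of either line. The 1G11-mock arrays lie above the 1G11-SOD3 arrays for *Ccl2* and *Ccl7*, and 1G11-SOD3 replicate 3 lies apart for *Ccl5*.

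The copies of the *Ccl2* probe show the spread of spots within an array. Among the 6 outside copies, the SD of single spots within an array was 0.137 to 0.316, with the outlier spot included. The SDs between arrays, 0.94 for 1G11-mock and 0.31 for 1G11-SOD3, are of means over copies. They cannot be set directly against the SD of single spots. The log2 differences of the 6 outside copies ran from -4.09 to -3.63. In the middle, the 4 copies averaged 15.36 ± 0.21 in 1G11-mock and 12.44 ± 0.40 in 1G11-SOD3 (SD, n = 3), a log2 difference of -2.92 ± 0.26 (SE), 7.57-fold lower, with a limma adjusted p of 0.000265. In that region 0.0622% of the 6435 features tested were called lower (more than 2-fold and adjusted p under 0.05) and 12% were called higher. Of the 4 copies, 3 had differences of -3.32, -3.24 and -3.17. The remaining copy, in row 221 and column 86, had 14.61, 13.76 and 13.21 in 1G11-mock and 12.35, 11.72 and 13.05 in 1G11-SOD3, a difference of -1.49, and its spot on 1G11-mock replicate 2 had been marked as an outlier by the scanner software. The fitted surface differed between the lines by 2.17 at this spot, and the position-adjusted difference of the copy was -3.34. Position adjustment brought the middle copies to -3.69 as a group, against -3.63 for the outside copies.

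**Figure D2:**
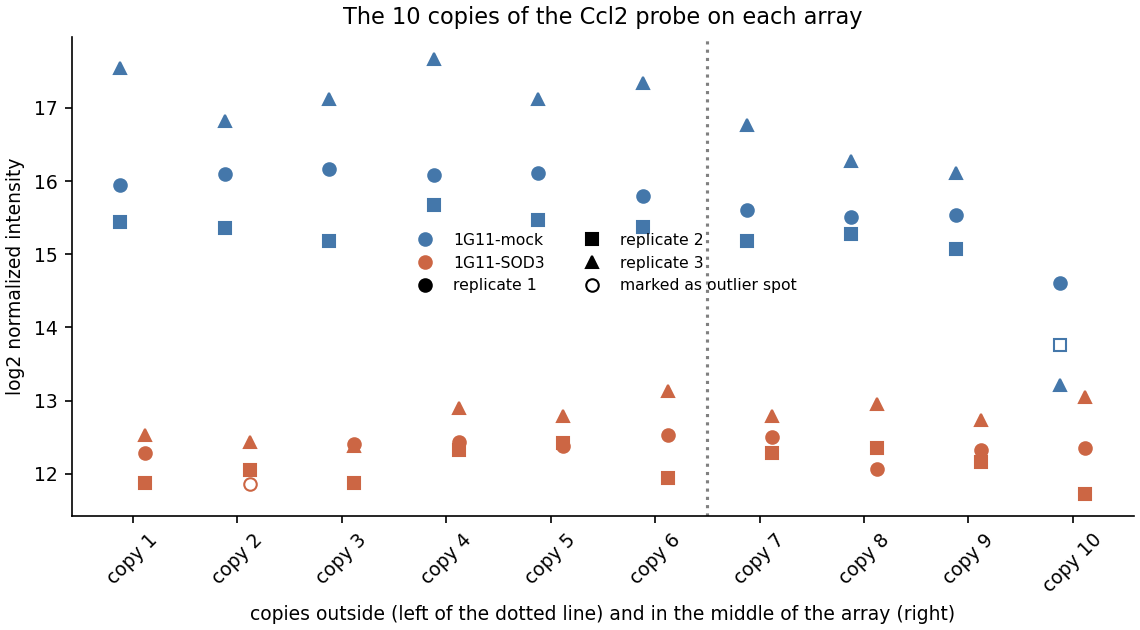
Log2 normalized intensity (y axis) of each of the 10 copies of the *Ccl2* probe (x axis), by cell line (color) and replicate (marker), with the 6 copies outside the middle of the array on the left and the 4 copies in the middle on the right. Open markers are spots marked as outliers. In all 10 copies every 1G11-mock value is above every 1G11-SOD3 value, and copy 10 (row 221) has the smallest difference, -1.49.

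*Ccl7*, which like *Ccl2* encodes a ligand of CCR2, was also lower in 1G11-SOD3 cells. Its single spot, outside the middle, had log2 levels of 14.23, 13.42 and 14.74 in 1G11-mock and 11.01, 11.58 and 11.45 in 1G11-SOD3. The lowest 1G11-mock array was above the highest 1G11-SOD3 array. The log2 difference was -2.78 ± 0.32 (SE; 95% interval -3.50 to -2.07), 6.89-fold lower, with a limma adjusted p of 0.00111, and -2.66 after position adjustment. Of the 1G11-mock arrays, replicate 3 was highest and replicate 2 lowest, as for the outside copies of *Ccl2*.

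*Ccl9*, a CCR1 ligand, differed the other way and was not called. Its levels were 9.66, 9.42 and 10.02 in 1G11-mock and 10.55, 10.51 and 10.29 in 1G11-SOD3. All 1G11-SOD3 arrays were above all 1G11-mock arrays, but the log2 difference of 0.75 ± 0.24 (SE) had an adjusted p of 0.138. The spot lay in row 127 and column 51, just outside the middle, where the surface itself was higher in 1G11-SOD3 by 0.69. After position adjustment the difference was 0.53 (adjusted p = 0.302).

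*Ccl5*, which encodes a T-cell and monocyte attractant, had a log2 difference of -0.78 ± 0.53 (SE; 95% interval -1.95 to 0.39; adjusted p = 0.562) that did not exceed the spread. Its levels were 12.55, 12.66 and 11.78 in 1G11-mock and 12.29, 12.36 and 9.99 in 1G11-SOD3. The groups overlapped, and 1G11-SOD3 replicate 3 stood apart from the other arrays. That spot had a mean intensity of 1670, against 5860 and 5980 on the other 1G11-SOD3 arrays, and it was not marked as an outlier. Within 10 rows and columns of it lay 143 spots that were well above background on all arrays. Their median raw log2 difference of replicate 3 from the other 1G11-SOD3 arrays was 0.12. Over all such spots of the array it was 0.31. In normalized values, which are on another scale, *Ccl5* on replicate 3 differed from those arrays by -2.33. Without 1G11-SOD3 replicate 3, and with 1G11-mock replicate 3 kept, the difference between the lines was -0.0070 (adjusted p = 0.995). Between arrays of the same replicate number, *Ccl5* differed by -0.26, -0.30 and -1.79, and the mean of pairs 1 and 2 was -0.28. With the replicate block, the SE of the difference was 0.31 (adjusted p = 0.231).

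For *Ccl25* no difference beyond the error was measured. A_51_P161265 had 10.89, 10.70 and 10.16 in 1G11-mock and 10.45, 10.87 and 10.37 in 1G11-SOD3, a log2 difference of -0.02 (95% interval -0.60 to 0.55; adjusted p = 0.982). A_66_P104618 had 8.88, 8.83 and 9.52 in 1G11-mock and 8.83, 8.93 and 9.13 in 1G11-SOD3, a log2 difference of -0.11 (95% interval -0.66 to 0.44; adjusted p = 0.891). Both intervals leave out a 2-fold change in either direction. The sign of both differences turned under other settings.

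**Figure D3:**
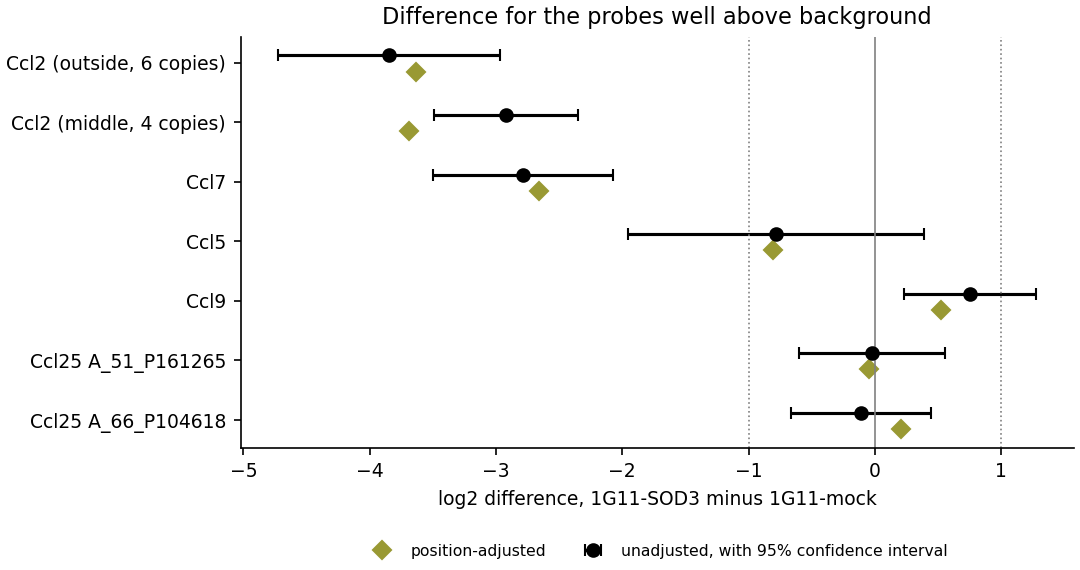
Log2 difference of 1G11-SOD3 from 1G11-mock (x axis) for the 7 ligand features well above background on every array of a line (y axis). Black points with whiskers are the unadjusted values with their 95% confidence intervals, diamonds are the position-adjusted values, and dotted lines mark 2-fold. The intervals of *Ccl2* and *Ccl7* lie beyond 2-fold, and position adjustment brings the inside and outside copies of *Ccl2* to -3.69 and -3.63.

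The other ligands had no measured level. The log2 values of *Ccl8*, *Ccl11*, *Ccl12*, *Ccl20* and *Ccl25* probe A_55_P2027852 lay between 6.50 and 7.90 on all arrays. The lowest value that the scanner software found well above background was 7.55 to 8.16 per array. None of them passed the test, and their differences give no direction. For *Ccl6*, the array that passed had 8.65 and the other 1G11-mock arrays 6.97 and 6.94, against 6.87, 6.81 and 7.26 in 1G11-SOD3. Its 1G11-mock mean of 7.52 was below the detection limit of 7.72 over the 1G11-SOD3 arrays, so no fold is given. *Ccl20*, in row 207 and column 91, had a log2 difference of -0.04 (adjusted p = 0.968). Position adjustment turned it to -1.65 (adjusted p = 0.0354) by subtracting a surface that differed by 2.13, from spots at background on all arrays, and no direction is read from it. The *Ccl11* spot lay next to the middle, in row 132 and column 110, and had a difference of 0.15.

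Of the 11 ligand features outside the middle, 2 were called lower (*Ccl2* and *Ccl7*) and 0 higher, where limma called 1.2% of 49526 features lower and 0.66% higher. At an unadjusted limma p under 0.05, in either direction, there were 5 of all 13 ligand features and 14.5% of all features. The 5 were *Ccl7*, *Ccl9*, the *Ccl2* probe counted both inside and outside the middle, and the *Ccl25* probe A_55_P2027852, at background on every array. Among features outside the middle and well above background on every array of a line, the calls were 3.22% lower and 1.82% higher, and the ligands' count there was 2 of 6. The cell lines did not overlap for 2 of the 11 features in the direction of lower levels (*Ccl2* and *Ccl7*), with a background of 11.4%. They did not overlap for 2 in the direction of higher levels (*Ccl9* and the dim probe A_55_P2027852 of *Ccl25*), with a background of 8.22%. The median log2 difference was -0.11 over the 11 features and -0.03 over all 55961 features tested. With position adjustment, 3.17% of all features were called lower.

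In the mouse genome most of these genes are neighbors. In RefSeq (GRCm38.p6), *Ccl2* (chr11:82035577-82037452), *Ccl7* (chr11:82045712-82047525), *Ccl11*, *Ccl12* and *Ccl8* (chr11:82115185-82116799) lie in a row over 81.2 kb, and *Ccl7* begins 8259 bases after the end of *Ccl2*. *Ccl5* (chr11:83525778-83530518), *Ccl9* (chr11:83572917-83578636) and *Ccl6* (chr11:83587886-83593087) lie further along the same chromosome. Past *Ccl7*, the next ligand genes *Ccl11*, *Ccl12* and *Ccl8* were at background in both lines. On the other side of *Ccl2*, the only one of the nearest 5 genes with a probe, the long non-coding RNA *5530401A14Rik*, was at background too (log2 difference -0.63, adjusted p = 0.283). With CC ligands left out, the nearest genes after *Ccl8* with a probe, *Tmem132e*, *Gm11426* and *Cct6b*, were likewise not above background on any array. Near *Ccl5*, *Taf15*, which encodes an RNA-binding protein of the transcription machinery, was above background on 2 1G11-mock and 3 1G11-SOD3 arrays, with a log2 difference of 0.08 (adjusted p = 0.945).

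**Figure D4:**
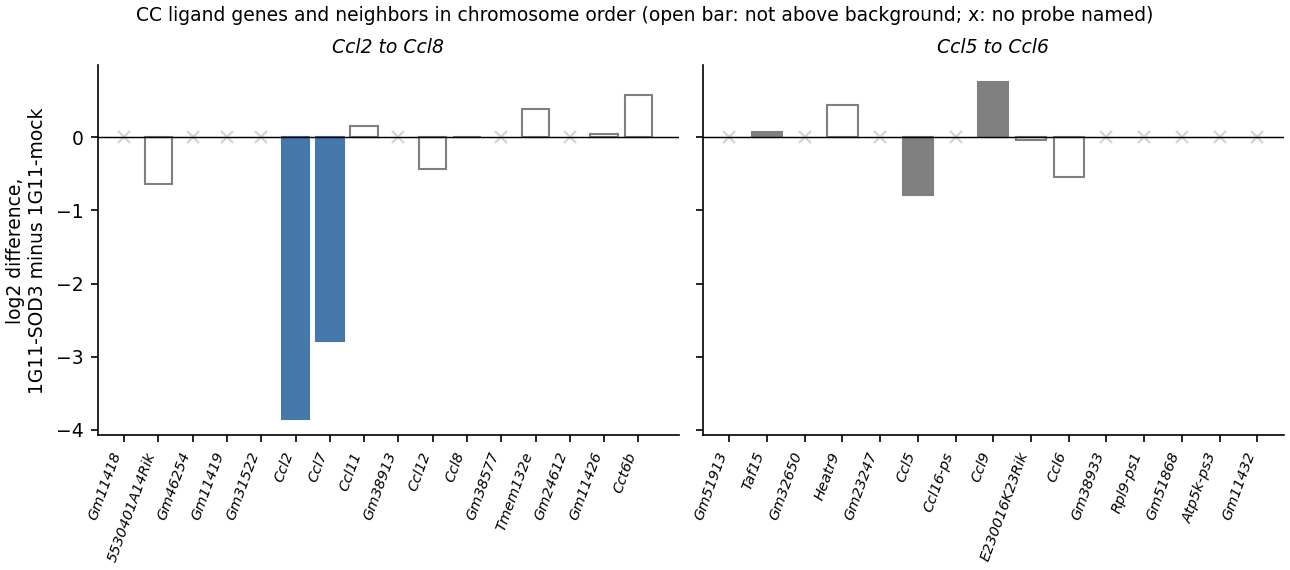
Log2 difference of 1G11-SOD3 from 1G11-mock (y axis) for the genes around *Ccl2* to *Ccl8* (left) and *Ccl5* to *Ccl6* (right) in chromosome order (x axis, not to scale). CC ligands beyond each run were left out. Blue bars were called lower, open bars are genes that did not pass the background test on all arrays of either line, and crosses are genes with no named probe. The only called genes are *Ccl2* (-3.85) and *Ccl7* (-2.78), which lie side by side.

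RefSeq promoter sequence (GRCm38.p6) was at hand for 6 of the 10 genes: *Ccl6*, *Ccl8*, *Ccl9*, *Ccl12*, *Ccl20* and, with 2 entries, *Ccl25*. The entries of *Ccl2*, *Ccl5*, *Ccl7* and *Ccl11* are missing. The 250 bases before the start are printed for *Ccl9*, *Ccl20*, *Ccl12* and *Ccl8*. *Ccl9* is the measured ligand that was not lower and holds a match to the NF-κB consensus. *Ccl20*, whose spot was at background, also holds one. *Ccl12* and *Ccl8* are neighbors of *Ccl2* and *Ccl7* whose spots were at background. Capitals mark matches on either strand to the NF-κB (κB) consensus, the AP-1 site TGANTCA and the TATA box TATAAA.
Ccl9, GRCm38.p6 chr11:83578637-83578886, - strand: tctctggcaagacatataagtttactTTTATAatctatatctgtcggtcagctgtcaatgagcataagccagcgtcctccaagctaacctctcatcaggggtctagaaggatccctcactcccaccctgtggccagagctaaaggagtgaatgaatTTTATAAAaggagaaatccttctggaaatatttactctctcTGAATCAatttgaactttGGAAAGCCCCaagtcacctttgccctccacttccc
Ccl20, GRCm38.p6 chr1:83116516-83116765, + strand: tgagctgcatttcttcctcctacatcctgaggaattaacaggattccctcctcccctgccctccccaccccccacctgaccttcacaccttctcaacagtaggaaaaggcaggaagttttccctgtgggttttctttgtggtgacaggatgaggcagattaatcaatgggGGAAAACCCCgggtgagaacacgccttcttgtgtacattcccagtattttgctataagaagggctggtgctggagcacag
Ccl12, GRCm38.p6 chr11:82101595-82101844, + strand: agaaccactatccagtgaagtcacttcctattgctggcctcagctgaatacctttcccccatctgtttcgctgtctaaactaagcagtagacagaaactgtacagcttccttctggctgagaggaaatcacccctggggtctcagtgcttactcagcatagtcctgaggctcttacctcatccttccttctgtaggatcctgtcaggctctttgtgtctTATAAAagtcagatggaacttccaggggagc
Ccl8, GRCm38.p6 chr11:82114935-82115184, + strand: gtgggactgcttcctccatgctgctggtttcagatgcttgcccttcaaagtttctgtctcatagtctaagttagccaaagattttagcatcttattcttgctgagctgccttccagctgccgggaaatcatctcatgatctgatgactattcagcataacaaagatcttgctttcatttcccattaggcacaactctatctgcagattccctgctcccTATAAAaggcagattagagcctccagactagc
The κB match ended 25 bases before the start in *Ccl9* and 70 bases before it in *Ccl20*. No other entry of these genes held one, and 7.25% of 32851 promoters did. The AP-1 letters were found in *Ccl9* alone, 46 bases before the start, and in 6.75% of all promoters. TATAAA stood 25 bases before the start in *Ccl12*, 26 in *Ccl8* and 10 in one entry of *Ccl25*. In *Ccl9* it was found 3 times, at 86, 88 and 218 bases before the start, and the matches at 86 and 88 bases overlap on opposite strands. Of all promoters, 12.4% held it. The interferon-response core GAAANNGAAA (2.98% of promoters) and the GC box GGGCGG (32.7%) were in none of these entries. These are matches of letters only.

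The other CC ligands and the receptors gave little signal in these cells. Of 13 further ligands, 10 had a probe, 7 were at background on every array, and *Ccl27a*, encoding a skin-associated T-cell attractant, was the only one above background on all arrays of a line. Its log2 levels were 10.99, 10.87 and 10.93 in 1G11-mock and 10.48, 10.48 and 10.28 in 1G11-SOD3, a difference of -0.51 (adjusted p = 0.291) that was -0.02 after position adjustment. Of 14 CC chemokine receptors and scavengers, which include CCR2, the receptor of CCL2 and CCL7, 0 were above background on every array of a line and 12 were at background on all arrays. None of either list was called.

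The NF-κB list held 13 genes of subunits, inhibitors and kinases, and 12 were above background on every array of a line. Called lower in 1G11-SOD3 were 4 and called higher 0, and all 4 encode inhibitors or IκB-family proteins rather than the DNA-binding subunits. *Tnfaip3* (A20, a deubiquitinase that limits NF-κB signaling) had 11.93, 11.12 and 12.16 in 1G11-mock and 9.78, 9.25 and 9.30 in 1G11-SOD3, a log2 difference of -2.29 ± 0.30 (SE, adjusted p = 0.00217). *Nfkbiz* (the nuclear IκBζ) differed by -2.07 (adjusted p = 0.00951), *Nfkbie* (IκBε) by -1.73 (adjusted p = 0.00388) and *Nfkbia* (IκBα) by -1.29 (adjusted p = 0.0172). The 4 genes did not overlap between the lines, and neither did *Rela*, *Relb* and *Ikbkg*, which were not called. Outside the middle, 11.4% of all features were lower without overlap. After position adjustment the 4 genes were called as well. Of the subunits, *Relb* had the largest difference, -1.12 (adjusted p = 0.135), and *Rela* had -0.52 (adjusted p = 0.326). The median difference of the 12 genes was -0.64, against -0.07 over the 11045 named genes above background by the same rule, of which 3.42% were called lower. The count was 4 to 5 in 15 alternatives with all arrays and 3 to 4 with 1 array left out.

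Of 12 receptors whose ligands are known to induce CC chemokines, 11 were above background on every array of a line. *Tlr2* and *Tlr4*, which sense bacterial lipoproteins and lipopolysaccharide, were called lower. With 1 array left out, 1 to 2 receptors were called lower. Of the 11045 named genes above background by the same rule, 3.42% were called lower and 5.29% higher. *Tlr2* had 12.494, 11.996 and 13.235 in 1G11-mock and 10.85, 10.59 and 9.99 in 1G11-SOD3, a log2 difference of -2.10 (adjusted p = 0.00634). *Tlr4* had 11.65, 11.53 and 12.12 against 9.76, 9.62 and 10.90, a difference of -1.67 (adjusted p = 0.0215). *Ifnar2*, a chain of the type I interferon receptor, was called higher at 3.27 (adjusted p = 0.00318). Its probe was one of those in the middle, and with position adjustment the difference was 1.03 (adjusted p = 0.0547) and the call was lost. The receptors of TNF and IL-1 were above background in both lines and were not called, with differences of -0.33 for *Tnfrsf1a*, -0.75 for *Tnfrsf1b* and 0.51 for *Il1r1*.

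**Figure D5:**
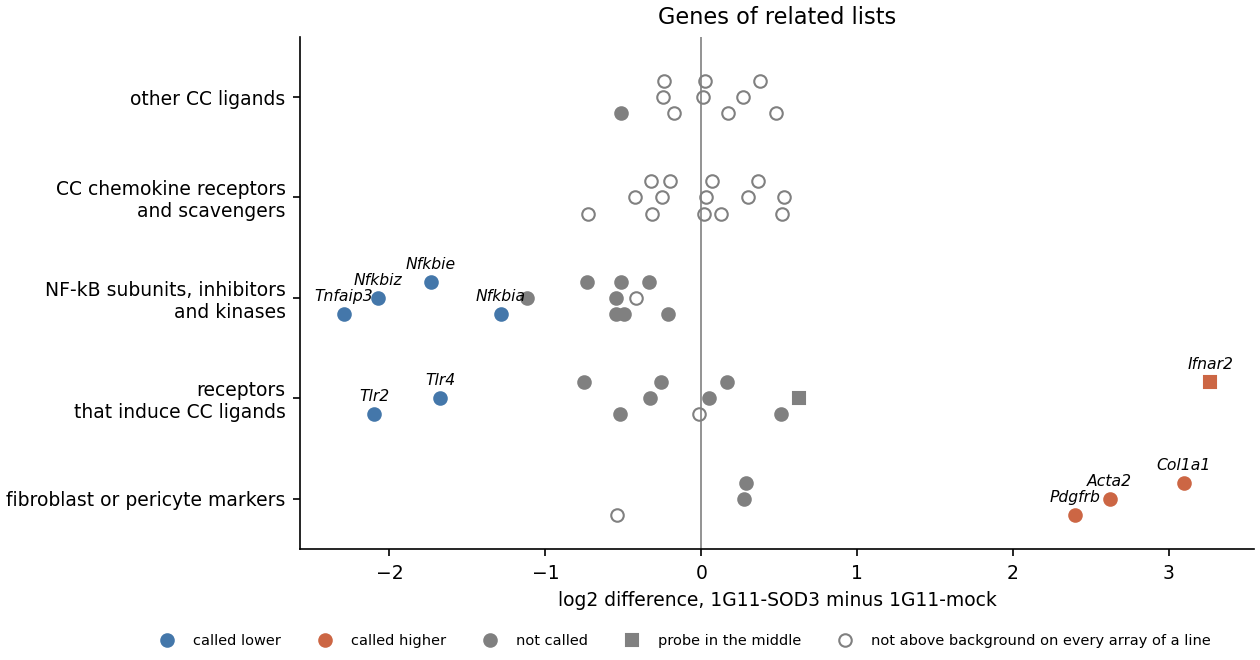
Log2 difference of 1G11-SOD3 from 1G11-mock (x axis) for each gene of 4 lists related to the CC ligands and of the fibroblast or pericyte markers (y axis). Blue points were called lower and orange points higher, squares are probes in the middle of the array and open points are genes not above background on every array of a line. The 4 called NF-κB genes and *Tlr2* and *Tlr4* lie between -2.29 and -1.29, and *Ifnar2*, at 3.27, is a probe in the middle.

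Some markers of cell types also differed between the lines. Of 12 endothelial markers, 5 were above background on every array of a line (*Kdr*, *Flt1*, *Eng*, *Esam* and *Vwf*). The defining genes *Cdh5*, *Tek*, *Tie1*, *Erg* and *Emcn* were at background on every array, and *Pecam1* passed on 2 1G11-mock and 1 1G11-SOD3 arrays. The paper checked the endothelial origin of these cells by regular staining for VE-cadherin, the protein encoded by *Cdh5*. The arrays measure RNA only. *Vwf*, the von Willebrand factor of endothelial storage granules, was the only one called and was lower in 1G11-SOD3 (log2 difference -1.66, adjusted p = 0.00330). *Eng* and *Kdr*, with probes outside the middle, had differences of -1.05 and -0.51 (adjusted p = 0.0830 and 0.298). After position adjustment these were -0.68 and -0.47. *Esam* and *Flt1*, with probes in the middle, had differences of 1.22 and 1.08 (adjusted p = 0.185 and 0.216) that were -0.38 and 0.12 after position adjustment. With the replicate block, both were called higher. Of 6 fibroblast or pericyte markers, 5 were above background on every array of a line and 3 were higher, namely *Col1a1* by 3.097, *Acta2* by 2.62 and *Pdgfrb* by 2.40, with adjusted p of 0.00143, 0.00104 and 0.000341, where 5.29% of the 11045 named genes above background were called higher. Their list had a mean log2 level of 10.25 to 10.59 on the 1G11-mock arrays and 11.53 to 12.11 on the 1G11-SOD3 arrays. *Dcn*, not called, stood at 17.05 on 1G11-SOD3 replicate 3 and at 13.51 and 13.59 on the other 1G11-SOD3 arrays. Without it the list's means were 9.49 to 9.75 and 11.12 to 11.37. Of 10 leukocyte markers 0 were called. On all 6 arrays 4 were above background (*Itgam*, *Cd14*, *Cd3e* and *Csf1r*, with 1G11-mock means of 14.20, 11.26, 10.996 and 8.97), whereas *Ptprc*, *Cd68*, *Adgre1*, *Lyz2* and *Aif1* were at background on every array. Of 6 mammary epithelial markers 0 were called. *Krt19* (means of 16.48 and 15.96) and *Erbb2* (10.51 and 10.84) were above background on all arrays and *Cdh1* on the 3 1G11-SOD3 arrays, whereas *Epcam* and *Krt18* were at background on every array. The part of the fibroblast and endothelial marker differences in the lower *Ccl2* and *Ccl7* was not tested. In RNA from a whole culture, fewer cells making a chemokine and less of its RNA per cell cannot be told apart.

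Among the genes most like *Ccl2* over the 6 arrays, of 9182 genes outside the middle that were well above background on all of them, were *Ccdc68* (r = 0.999), *C3* (r = 0.997), *C1rl* (r = 0.997) and *Epn2* (r = 0.996). *C3*, the central complement component, had means of 15.95 in 1G11-mock and 13.69 in 1G11-SOD3, a log2 difference of -2.26. The arrays fall into 2 groups, and 727 of the 9182 genes had r above 0.9, so these values describe a pattern shared by many genes.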

How the data were processed

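The authors deposited, for each of the 6 arrays (3 per cell line), scanner tables from Feature Extraction 10.7.3.1 (Agilent). The deposited intensity values are pixel means and medians per spot and local backgrounds, read by the authors from the scans without normalization between arrays, beside a processed signal. A further deposited table holds background-corrected, quantile-normalized log2 values and served as an alternative.

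Values were computed from the mean intensities with limma 3.58.1 in R 4.3.3 (normexp, offset of 50, quantile normalization, control spots removed, spots flagged as non-uniform or population outliers left out). Lines were compared by lmFit and eBayes, with Benjamini-Hochberg adjustment over all features. The number of arrays limits the precision. A call required a change over 2-fold with adjusted p under 0.05. Position surfaces were fitted with mgcv 1.9.3. Tables and figures were made in Python 3.11.15 (matplotlib 3.10.9, pandas 2.3.3, numpy 2.4.6). Probes were named through RefSeq (GRCm38.p6) or their description; 27110 of 55681 stayed unnamed. A listed gene was represented by its brightest feature outside the middle, or inside where it had no other.

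All probes of the ligands are reported. Of related lists, called genes and counts above background are given. Neighbors are the 5 genes on either side of each run of ligands, with further CC ligands skipped. Of the 5 genes most like *Ccl2*, 4 are given. Some genes that the rule covers are not reported here. *Relb*, *Rela*, *Ikbkg*, the receptors of TNF and IL-1 and the marker genes are named beyond that rule, to show what did not pass. Members and lists were chosen with earlier results of these data known. On simulated data with 200 changed features among 55802, 198 were found, with 14 false calls. The simulated noise was independent, without effects of place or replicate number, and the changes were well past the 2-fold threshold. Its figures therefore do not carry over to calls on the measured arrays. Deviations of arrays with the same replicate number correlated at 0.159, 0.146 and 0.243, which meets the limit of 0.1 set for pairing. Reported values come from the fit without the replicate number, and the replicate block was an alternative.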

Additional observations from a re-analysis of the deposited data

How the results depend on the processing

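The calls of *Ccl2* and *Ccl7* held in every alternative that gave a value. With all arrays, the log2 difference ran from -3.90 to -3.47 for the outside copies of *Ccl2* over 15 alternatives, from -3.72 to -2.77 for the middle copies over 13, and from -2.80 to -2.40 for *Ccl7* over 15. With 1 array left out they were -4.25 to -3.33, -3.18 to -2.75 and -3.14 to -2.48. With the replicate block, the adjusted p was 4.35e-05 for the outside *Ccl2* copies and 0.000558 for *Ccl7*, and the block changed no call of these ligands. From 2 to 4 ligand features were called lower with all arrays and 3 with any array left out (288 to 529 of all features), and 0 were called higher. The count was 2 where all *Ccl2* copies were averaged or the middle was left out. It was 4 with the scanner's processed signal, where 10007 of all features were called lower. It was also 4 with position adjustment, where 1776 of all features were called lower. The feature added by position adjustment was *Ccl20*, at background on all arrays.

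*Ccl5* (-0.83 to -0.59) and *Ccl9* (0.43 to 0.94) kept their direction and were not called. The sign of *Ccl25* turned. For A_51_P161265 it was positive with median pixel intensity (0.071), scaling to the 75th percentile (0.085), cyclic loess (0.091), the deposited table (0.07) and the middle left out (0.16), and -0.23 to 0.13 with 1 array left out. For A_66_P104618 it was positive with the scanner's processed signal at a common 75th percentile (0.16), the middle left out (0.040) and position adjustment (0.21), and -0.24 to 0.11 with 1 array left out. The cause was not tested.

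Over all features, 1101 were called higher and 596 lower. Moves beyond 1.5 times were 689 higher without background correction, 384 lower with an offset of 16, 10007 lower with that processed signal, 1051 lower with scaling to the 75th percentile, 412 higher and 356 lower with the middle left out, and 684 higher and 1776 lower with position adjustment. With 1 array left out the counts were 504 to 1342 higher and 288 to 529 lower. Signal over background limits *Ccl6*, *Ccl8*, *Ccl11*, *Ccl12* and *Ccl20*, for which no difference could be measured.

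Counts of related genes under these alternatives were added after the data had been seen. The 3 fibroblast or pericyte markers called higher stayed 3 throughout. Receptors called lower numbered 2 to 3 with all arrays and 1 to 2 with 1 left out.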
